A study of Mus musculus with 25 samples.

Results

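The germline and meiosis genes described here were Dazl, Ddx4, Mael, Tdrd1, Stk31, Sycp1, Sycp3, Hormad1, Tex101 and Slc25a31. They were taken by symbol as genes of germ cells whose promoters are kept silent by DNA methylation in somatic cells. That rule uses no measured value, but the members were chosen with earlier results of these data known. All 10 had a row among the 35731 of the RNA table of mouse embryonic stem cells (mESCs) and among the 24062 of the RNA table of 8-cell embryos. The study concerned methylation of histone H3 at lysine 79 by the enzyme DOT1L. RNA was sequenced from untreated mESCs of the strain v6.5, an embryonic stem cell line, with 3 libraries of wild-type cells (WT) and 2 of cells labelled Dot1L KO (KO). ChIP of H3K79me2 and of H3K79me3 was done in untreated cells of the same strain and both genotypes, with 2 libraries each. How the knockout was made, and whether it is 1 clone, is not given in the sources used here. Embryo RNA came from wild-type pools of 30 to 35 embryos of a B6D2F1 by Cast/EiJ cross, collected 56 hours after fertilization. Of these, 2 pools had received DMSO and 2 the DOT1L inhibitor SGC0946, at a dose and for a time not given in the sources used here. Where the labels do not say that replicates came from separate cultures, a p-value measures only the spread between these libraries, which may be technical.

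Germ cells use these genes for RNA control, transposon silencing and the pairing of chromosomes in meiosis. In most other cells CpG-rich promoters of this class are methylated, a state set up around implantation. Before that, a non-canonical Polycomb complex that holds MGA with MAX, which bind the E-box CACGTG, and E2F6, which binds TCCCGC-like sites, acts on many of them. mESCs in culture are known to transcribe several of these genes at low levels. DOT1L is the methyltransferase of H3K79, and H3K79me2 is known as a mark of the bodies of transcribed genes. DNA methylation was not measured in the files used here.

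The promoters are shown because most members held the sequence features described next. The class was introduced above by CpG-rich promoters and by factors that bind CACGTG and TCCCGC-like sites. These features are therefore not independent of the choice of members. RefSeq promoters of GRCm38.p6, from 250 bases before to 50 after a transcript start, matched 10 of 10 members. Where RefSeq gave several windows the most upstream was used, and for Ddx4, Stk31 and Tdrd1 its start lies inside the gene span printed with each gene below. These windows held 15 to 38 CpG dinucleotides with a median of 23, against a median of 13 over 17492 protein-coding genes. CACGTG, which reads the same on both strands, stood in the windows of 8 of 10 members, all but Dazl and Tex101. It stood in 7.91% of all protein-coding promoters and in 11.6% of the 8284 with at least 15 CpG. TCCCGC on either strand stood in 6 of 10, Ddx4, Mael, Sycp1, Sycp3, Hormad1 and Slc25a31, against 25.8% of all and 45.4% of the CpG-rich promoters. Both motifs stood together in 6 of 10, against 2.74% and 5.19%. Among 57 promoters of the 4 wider germline lists described below, 21.1% held CACGTG, 35.1% TCCCGC and 5.26% both. The frequent pair was thus seen in the members and not in those related lists. No copy of one motif overlapped a copy of the other. Hormad1 and Sycp3 each held 2 copies of CACGTG, the former at 57 and 20 bases before the start and the latter at 64 and 43. The single copy lay 223 bases before the start in Mael, 94 in Sycp1, 93 in Slc25a31, 55 in Stk31, 29 in Ddx4 and 11 in Tdrd1. A match describes the letters only and is not a bound site. The 250 bases before the start are printed 5′ to 3′ along the gene for 4 members with both motifs in their window and for Dazl, which held neither, with CACGTG and TCCCGC or its reverse complement GCGGGA in capitals. The TCCCGC copies of Sycp1 and Slc25a31 and a second one of Mael lay after the start, outside the printed bases.
Hormad1, chr3:95559427-95559676, plus strand: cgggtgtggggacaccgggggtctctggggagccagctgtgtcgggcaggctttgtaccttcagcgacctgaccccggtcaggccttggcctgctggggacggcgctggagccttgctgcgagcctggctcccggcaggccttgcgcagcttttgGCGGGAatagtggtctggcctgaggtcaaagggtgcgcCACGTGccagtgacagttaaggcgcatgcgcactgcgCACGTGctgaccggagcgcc
Mael, chr1:166238745-166238994, minus strand: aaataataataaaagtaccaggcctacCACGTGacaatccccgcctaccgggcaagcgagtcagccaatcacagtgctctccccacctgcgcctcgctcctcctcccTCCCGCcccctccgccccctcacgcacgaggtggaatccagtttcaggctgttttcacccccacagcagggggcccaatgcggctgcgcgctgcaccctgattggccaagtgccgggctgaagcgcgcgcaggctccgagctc
Slc25a31, chr3:40708621-40708870, plus strand: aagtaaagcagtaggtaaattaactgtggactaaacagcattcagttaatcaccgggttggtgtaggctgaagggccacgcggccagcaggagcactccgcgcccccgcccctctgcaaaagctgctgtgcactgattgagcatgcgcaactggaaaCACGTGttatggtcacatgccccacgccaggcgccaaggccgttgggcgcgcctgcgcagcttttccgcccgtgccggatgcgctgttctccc
Sycp1, chr3:102936101-102936350, minus strand: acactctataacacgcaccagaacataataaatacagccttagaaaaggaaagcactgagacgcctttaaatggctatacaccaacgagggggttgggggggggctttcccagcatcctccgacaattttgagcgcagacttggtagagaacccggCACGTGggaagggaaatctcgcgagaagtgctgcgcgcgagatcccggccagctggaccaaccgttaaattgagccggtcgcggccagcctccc
Dazl, chr17:50293621-50293870, minus strand: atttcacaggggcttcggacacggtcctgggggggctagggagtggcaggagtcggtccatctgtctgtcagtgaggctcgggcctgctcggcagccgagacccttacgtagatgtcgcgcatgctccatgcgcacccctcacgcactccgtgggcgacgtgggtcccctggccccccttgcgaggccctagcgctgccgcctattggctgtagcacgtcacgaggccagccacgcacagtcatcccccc

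The mESC libraries held 26860390 to 33754956 counts and the embryo libraries 24950199 to 32479590. The authors' WT lists held 66834 and 64084 H3K79me2 peaks against 16 and 12 in the KO lists. Their H3K79me3 lists held 19800 and 7338 WT peaks against 178 and 328 KO peaks. Dot1l RNA averaged 100.1 ± 3.90 CPM over the 3 WT libraries and 76.5 ± 6.93 CPM over the 2 KO libraries (CPM, counts scaled to a common library total after TMM normalization; ± SD), so that transcripts of the locus were still counted in the knockout. The summed level of 7 mESC markers was 2942 to 2993 CPM in WT and 2544 to 2693 CPM in KO. Of these 7, Nanog (to 49.2% of its WT level), Zfp42 (72.7%) and Pou5f1 (86.5%) were called lower and Tfcp2l1 (137.6%) higher. Fibroblast markers, which feeder cells would carry, summed to 153 to 195 CPM in WT and 195 to 243 CPM in KO, and 3 of 6 tested (Col1a1, Postn and Thy1) were called higher. Oocyte markers summed to 6.33 to 7.02 CPM in WT and 4.30 to 4.60 CPM in KO, with Oosp1 at 0 in every library, and of 3 tested Padi6 was called higher and Zp3 lower. Cumulus and granulosa markers summed to 11.0 to 11.9 CPM in WT and 11.8 to 14.1 CPM in KO, and 1 of 6 tested (Ptx3) was called higher. Markers of spermatids and testis somatic cells summed to 9.11 to 10.1 CPM in WT and 9.80 to 10.5 CPM in KO, and none of the 3 tested was called. The Y-linked genes Ddx3y (to 39.4% of its WT level), Uty (49.8%), Kdm5d (89.1%) and Eif2s3y (89.4%) were all called lower. The median log2 fold change was −0.57 on chromosome X and 0.02 on autosomes, and all 10 members are autosomal. The part of these differences in the members' changes was not tested.

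In mESCs, all 10 members passed the filter on low counts and all 10 changed in KO, 8 upward and 2 downward, at an adjusted p under 0.05 in edgeR's quasi-likelihood test. The background was high, since 43.7% of the 19561 genes tested were called, 22.3% higher and 21.4% lower. The members' median log2 fold change was 0.85, against 0.00 over all tested genes, whose median absolute change was 0.24. WT and KO libraries did not overlap for any member, 8 higher and 2 lower in KO, where 31.9% and 30.6% of tested genes were separated in that way. A rise of at least 1 on the log2 scale was seen for 3 of 10, Mael, Tdrd1 and Tex101, against 4.59% of tested genes. Hormad1 had the largest fall of the 10, to 38.1% of its WT level. In bulk RNA, fewer or more cells that express a gene cannot be told apart from less or more RNA per cell. The values below are not corrected for transcript length, so levels were not compared between genes.

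**Figure D1:**
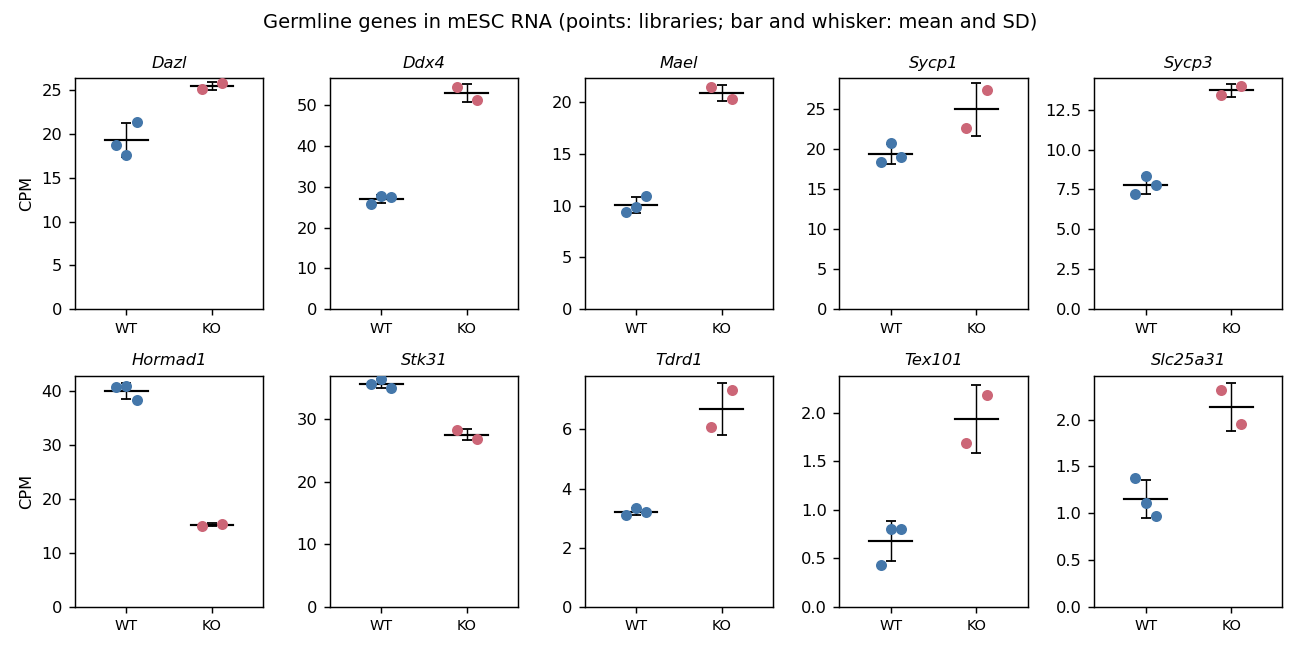
RNA level of each of the 10 germline genes in mESCs, in CPM, with 1 panel per gene and its own vertical axis from 0. Points are libraries (3 WT, 2 KO), and the bar and whisker are the mean and SD. KO points lie above all WT points in 8 panels and below them for Hormad1 and Stk31.

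Ddx4 (ENSMUSG00000021758, chr13:112598333-112652633, minus strand) encodes the germ cell RNA helicase homologous to Drosophila Vasa, a core component of the germ granules in which piRNAs, the small RNAs against transposons, are made. Its level was 25.9, 27.9 and 27.4 CPM in the WT libraries and 54.5 and 51.4 CPM in the KO libraries. Both KO libraries were thus well above the highest WT library, with 1552 and 1579 counts against 713 to 907. The means were 27.1 ± 1.05 CPM (SD, n = 3) and 52.9 ± 2.20 CPM (SD, n = 2). The log2 fold change was 0.97 ± 0.05 (SE, edgeR adjusted p = 2.0e-08).

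Mael (ENSMUSG00000040629, chr1:166201385-166238744, minus strand) encodes Maelstrom, a protein of the piRNA pathway needed for transposon silencing in the male germline. It was measured at 9.36, 9.86 and 10.9 CPM in WT and at 21.4 and 20.3 CPM in KO. The groups were far apart relative to their spread, 10.0 ± 0.80 CPM (SD, n = 3) against 20.9 ± 0.79 CPM (SD, n = 2), and the log2 fold change was 1.05 ± 0.08 (SE, edgeR adjusted p = 3.4e-07).

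Tdrd1 (ENSMUSG00000025081, chr19:56826171-56870012, plus strand) encodes a Tudor-domain protein of the germ granule that binds PIWI proteins. Its level was 3.12, 3.35 and 3.20 CPM in WT and 6.08 and 7.32 CPM in KO, with the KO libraries less alike than the WT libraries. The log2 fold change was 1.06 ± 0.13 (SE, edgeR adjusted p = 3.0e-05). Stk31 (ENSMUSG00000023403, chr6:49395506-49469506, plus strand), which encodes a germ cell protein with a Tudor and a kinase-like domain, went the other way. It was at 35.7, 36.4 and 35.1 CPM in WT and at 28.2 and 26.9 CPM in KO. Both KO libraries lay below the lowest WT library, and the log2 fold change was −0.38 ± 0.05 (SE, edgeR adjusted p = 1.1e-04). A pseudogene, Gm17060, lies within the span of Stk31.

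Dazl (ENSMUSG00000010592, chr17:50279393-50293620, minus strand) encodes an RNA-binding protein that controls translation in germ cells and is required for their development. Its level was 18.8, 17.6 and 21.4 CPM in WT and 25.1 and 25.8 CPM in KO. The gap between the groups was of the same order as the range within WT, and the change was among the smaller ones, 0.40 ± 0.08 on the log2 scale (SE, edgeR adjusted p = 0.0010).

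Of the synaptonemal complex genes, Sycp3 (ENSMUSG00000020059, chr10:88459587-88473236, plus strand) encodes a component of the lateral elements of that complex, the scaffold that joins paired chromosomes. It was at 7.22, 8.33 and 7.79 CPM in WT and 13.4 and 14.0 CPM in KO, and the KO libraries were close together and above every WT library. The log2 fold change was 0.81 ± 0.09 (SE, edgeR adjusted p = 9.9e-06). The gene overlaps Chpt1 on the opposite strand, and the strand setting of the counting is not given in the sources used here, so its value is uncertain. Sycp1 (ENSMUSG00000027855, chr3:102818499-102936100, minus strand) encodes the transverse filament of the same complex. It was at 18.4, 20.7 and 19.0 CPM in WT and at 22.7 and 27.4 CPM in KO. Its KO libraries differed by more than the WT range, and the change was the smallest rise of the 8, 0.37 ± 0.08 on the log2 scale (SE, edgeR adjusted p = 0.0031). The pseudogene Gm33866 lies within its span.

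Hormad1 (ENSMUSG00000028109, chr3:95559677-95587863, plus strand) encodes a HORMA-domain protein that coats the axes of unpaired meiotic chromosomes. Its level was 40.8, 41.0 and 38.4 CPM in WT and 15.0 and 15.5 CPM in KO, which rest on 1103 to 1334 counts per WT library and on 428 and 475 per KO library. The libraries of each genotype were close together and the genotypes far apart. The means were 40.0 ± 1.46 CPM (SD, n = 3) and 15.2 ± 0.30 CPM (SD, n = 2). The log2 fold change was −1.39 ± 0.06 (SE, edgeR adjusted p = 2.3e-09). The non-coding gene Gm40097 overlaps it by 1983 bp, which leaves the value uncertain, as for Sycp3.

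The remaining members serve later male germ cells and had few counts. Tex101 (ENSMUSG00000062773, chr7:24668012-24672050, minus strand), which encodes a surface glycoprotein of testicular germ cells needed for sperm fertility, was counted 12, 26 and 23 times in the WT libraries and 48 and 67 times in the KO libraries. That is 0.44 to 0.80 CPM against 1.69 and 2.18 CPM, a log2 fold change of 1.496 ± 0.27 (SE, edgeR adjusted p = 6.9e-04), and the WT libraries themselves differed by more in proportion than Dazl or Sycp1 did between genotypes. Slc25a31 (ENSMUSG00000069041, chr3:40708871-40726094, plus strand), the ADP/ATP carrier of male germ cell mitochondria, was at 1.38, 1.11 and 0.97 CPM in WT and 2.32 and 1.95 CPM in KO. The groups were apart but both low, and the log2 fold change was 0.89 ± 0.22 (SE, edgeR adjusted p = 0.0054).

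Other genes of the same pathways were followed in 4 wider lists. Of their 75 genes 69 were tested, of which 28 were higher, 17 lower and 24 not called, with a median log2 fold change of 0.16. Over all tested genes, 22.3% were higher and 21.4% lower. Of 18 piRNA-pathway genes 11 rose and 1 fell, with a median of 0.69. Of 23 tested meiotic chromosome genes 7 rose and 6 fell, with a median of 0.15. Of 13 tested genes of meiotic entry and germ cell specification 5 rose and 5 fell, with a median of 0.16, and of 15 tested further germ cell genes 5 rose and 5 fell, with a median of −0.09. These lists were written with earlier results of these libraries known, and their counts are a description.

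**Figure D2:**
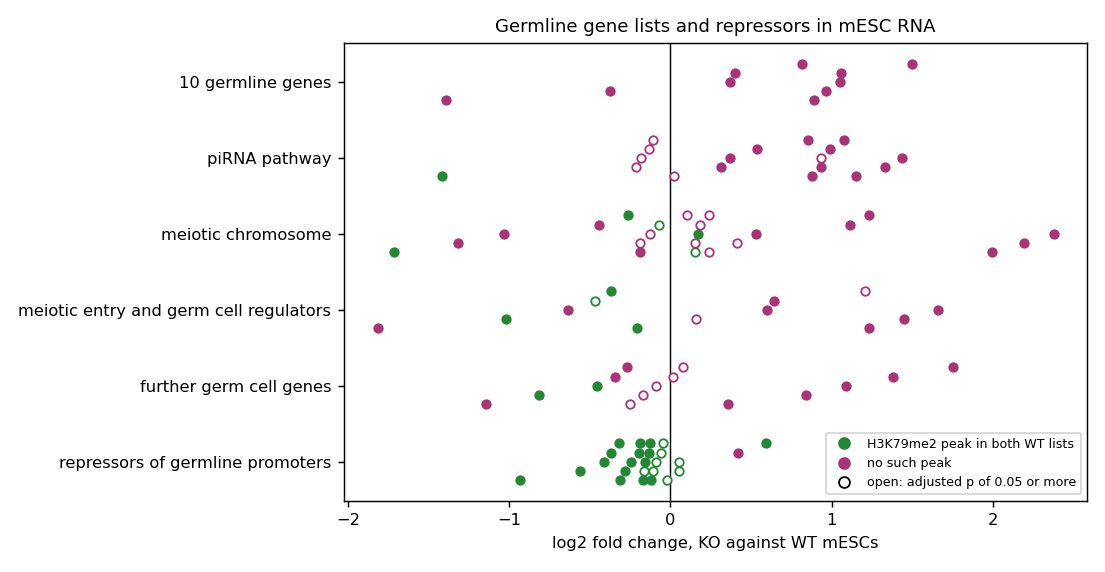
Log2 fold change in KO against WT mESCs of every tested gene of the members, the 4 wider germline lists and the list of repressors; vertical offsets within a row only separate points. Filled points were called at an adjusted p under 0.05, and green points had an H3K79me2 peak in both WT lists. Of the members, 8 lie to the right and 2 to the left of 0, all filled and none green, while most repressors are green and left of 0.

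In the piRNA list the largest rises were those of the Tudor-domain genes Tdrd5, from 5.59 ± 0.16 to 15.2 ± 0.31 CPM, and Tdrkh, from 5.03 ± 0.25 to 12.7 ± 1.21 CPM, and of the helicase gene Mov10l1, from 8.03 ± 0.09 to 17.8 ± 1.29 CPM (SD, n = 3 WT and 2 KO throughout). Their log2 fold changes were 1.44 ± 0.09, 1.33 ± 0.10 and 1.15 ± 0.08 (SE). The 1 gene that fell was Tdrd12, from 152 ± 1.72 to 56.9 ± 2.08 CPM, a log2 fold change of −1.42 ± 0.05. It encodes a Tudor-domain helicase needed for secondary piRNAs.

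Among meiotic chromosome genes the cohesin subunits Rec8 and Smc1b, and likewise the SYCP3 partner Sycp2 and the HORMAD1 relative Hormad2, took opposite directions. Rec8 rose from 9.01 ± 0.25 to 19.5 ± 1.74 CPM (log2 fold change 1.11 ± 0.08), and Smc1b fell from 72.6 ± 3.23 to 29.2 ± 4.12 CPM (−1.32 ± 0.07). Sycp2, at 2.25 to 3.06 CPM in WT, reached 10.4 and 11.0 CPM in KO (1.99 ± 0.13). Hormad2 fell from 41.1 ± 0.94 to 12.5 ± 1.22 CPM, a log2 fold change of −1.71 ± 0.07, beside the −1.39 of Hormad1. Mei1, needed for meiotic DNA breaks, was counted 7 to 14 times per WT library and 60 and 55 times in the KO libraries (2.38 ± 0.29), and Majin, which tethers telomeres in meiosis, fell by 1.03 ± 0.26 on the log2 scale from 1.35 ± 0.08 CPM.

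Of the regulators, Meioc and Stra8, both needed for entry into the meiotic programme, rose. Meioc went from 20.5, 23.4 and 21.3 CPM in WT to 72.7 and 65.1 CPM in KO (1.66 ± 0.07) and Stra8 from 7.04 ± 0.46 CPM to 19.8 and 18.6 CPM in its 2 KO libraries (1.45 ± 0.08), and the germ cell transcription factor gene Dmrt1 rose by 1.23 ± 0.06 on the log2 scale. Genes of primordial germ cell specification fell in the same libraries: Prdm1 from 30.2 ± 1.49 to 8.58 ± 0.16 CPM (−1.82 ± 0.07) and Prdm14 from 29.1 ± 2.56 to 14.3 ± 0.40 CPM (−1.02 ± 0.08), as did Sohlh2 (−0.64 ± 0.06), a factor of early germ cell differentiation. Of the further genes, Ddx25, a helicase of spermatids, rose by 1.75 ± 0.08, the testis bromodomain gene Brdt by 1.38 ± 0.18 and the X-linked homeobox gene Rhox13 by 1.09 ± 0.19. In that list Rpl10l (−1.14 ± 0.07), Tex19.1 (−0.82 ± 0.06) and Tex14 (−0.45 ± 0.05) fell, which encode a ribosomal protein of the testis, a protein of transposon control and a protein of germ cell bridges. Each adjusted p of a gene named in these wider lists was at most 0.00582 (edgeR).

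Among 25 genes of the complexes that repress germline promoters or write and erase DNA methylation, 2 were higher, 15 lower and 8 not called in KO, with a median of −0.16 on the log2 scale. The shares of all tested genes were 22.3% higher and 21.4% lower. Of the 25 genes, 24 had an H3K79me2 peak in both WT lists. Among all tested protein-coding genes with such a peak, 18.2% were higher and 33.5% lower. Dnmt3a, a de novo DNA methyltransferase, rose from 208 ± 0.90 to 313 ± 9.57 CPM (0.59 ± 0.04, edgeR adjusted p = 7.8e-08). Ring1, a Polycomb ubiquitin ligase subunit, was at 3.62 ± 0.26 CPM in WT and 4.84 ± 0.29 CPM in KO (0.42 ± 0.13, edgeR adjusted p = 0.022). That call was lost in DESeq2 (adjusted p = 0.105), without WT replicate 2 (0.0515) or 3 (0.0792) and without KO replicate 2 (0.110). The largest falls were those of the X-linked H3K4 demethylase gene Kdm5c, from 409 ± 7.11 to 214 ± 3.32 CPM (−0.94 ± 0.04), the Polycomb subunit gene L3mbtl2 (−0.56 ± 0.04) and the 5-methylcytosine oxidase gene Tet3 (−0.42 ± 0.06), with adjusted p of at most 1.0e-04 (edgeR). Outside the rule for naming genes, the factors whose motifs are described above were looked up after their values had been seen: Mga was at −0.32 ± 0.04 and Max at −0.13 ± 0.05, both called lower (edgeR adjusted p = 1.5e-05 and 0.0435), and E2f6 was at 0.05 ± 0.06 (edgeR adjusted p = 0.55).

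None of the 10 members had an H3K79me2 peak over its body in both WT lists, where 47.6% of the 16901 tested protein-coding genes had one. None had one over the body in either list (53.1% of genes). None had one in both lists with the body extended by 2 kb (51.2%) or within 1 kb of its start (31.6% of 13499 genes). The WT replicate 2 list alone had a peak inside that 2 kb extension, 1.80 kb from Hormad1. Since marked genes were mostly those with more RNA, the share was also taken among genes in the members' range of WT level, 0.678 to 40.0 CPM, where 31.2% of 10429 genes had a peak. At 20 to 50 CPM, the range of Ddx4, Hormad1 and Stk31, 76.0% of 3008 genes did, and at 10 to 20 CPM, the range of Dazl, Mael and Sycp1, 45.7% did. Below that the shares were 21.6% at 5 to 10 CPM (Sycp3), 6.56% at 2 to 5 CPM (Tdrd1), 3.05% at 1 to 2 CPM (Slc25a31) and 1.86% at 0.5 to 1 CPM (Tex101), so the last members' lack of a peak was shared by nearly all genes of their level. CPM is not corrected for length, and a peak list shows only regions past the authors' threshold.

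**Figure D3:**
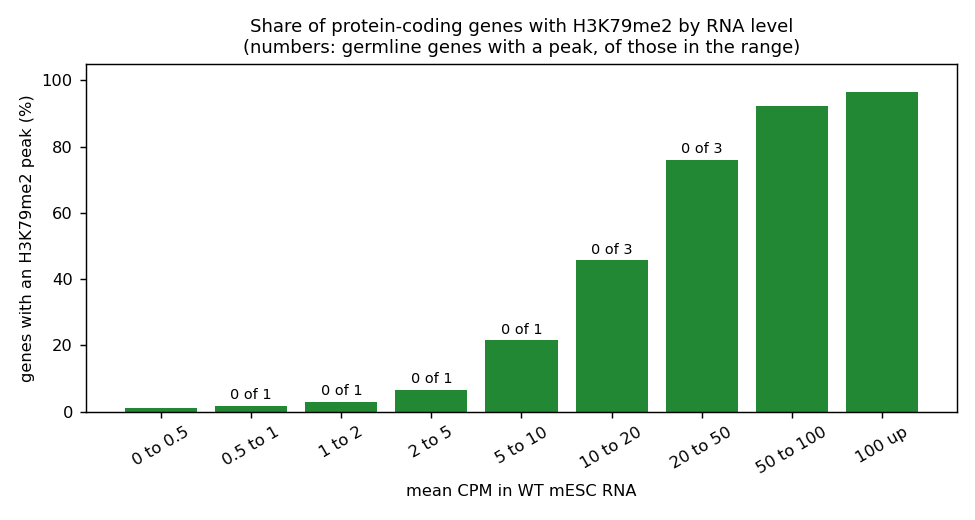
Share of tested protein-coding genes (vertical axis, percent) with an H3K79me2 peak in both WT lists, by mean WT RNA level (horizontal axis, CPM ranges). The number above a bar gives how many of the germline genes in that range had a peak. It is 0 in every range, including 0 of 3 at 20 to 50 CPM, where 76.0% of all genes were marked.

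The nearest WT H3K79me2 peaks lay over neighbouring genes. For Hormad1 they were 2.10 and 1.80 kb away in the 2 lists, over Golph3l, which follows it on the same strand. For Tdrd1 they were 4.19 and 4.09 kb away, over Ccdc186, which lies next to it on the opposite strand. For the other 8 members the nearest peak was at least 44.8 kb away, up to 1316 and 848 kb for Dazl. Sycp3 lies between Gnptab, with 14 H3K79me2 peaks in each WT list, and Chpt1, with none at 32.6 CPM. Slc38a9, the neighbour of Ddx4 at 22.8 CPM, likewise had none, so the lack of peaks at that level was not limited to the members.

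No member had an H3K79me3 peak in both WT lists, where 12.1% of tested protein-coding genes did, and 4.96% of those in the members' range of WT level. None had one with the body extended by 2 kb (13.4% of genes) or within 1 kb of the start (7.03%). No KO list of either mark had a peak over a member. Sycp1 had the only peak over a member, in WT replicate 1 alone, where 28.9% of genes had one (29.3% in either list). It lay at chr3:102936032-102936222, 191 bp from −122 to 68 bases relative to the start, with an enrichment of 3.49 and a −log10 q of 3.09 in the authors' values, and overlapped the printed promoter. The WT replicate 2 list, which was shorter, had its nearest peak 85.3 kb away.

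Among the 71 wider germline genes with a RefSeq position, 12 had H3K79me2 in both WT lists, Tdrd12, Hormad2, Prdm14, Tex19.1 and Tex14 among them, and 4 had H3K79me3. Of the 12 marked genes 1 rose and 8 fell in KO, with a median log2 fold change of −0.41. Of the 55 tested genes without the mark 26 rose and 8 fell, with a median of 0.36. Over all tested protein-coding genes the shares were 18.2% higher and 33.5% lower with the mark, and 30.3% higher and 12.0% lower without it. The marked germline genes also had more RNA in WT, a median of 57.9 CPM against 5.23 CPM, and the part of the level in that difference was not tested. Hormad1 and Stk31, which fell, had no peak, nor had the 8 members that rose. Of the 25 repressor genes, 24 had H3K79me2, all but Ring1.

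In 8-cell embryos edgeR called none of the 14351 tested genes (0%) at the threshold of 0.05. Unadjusted, 1169 genes (8.15%) were below 0.05. DESeq2 called 126 of 7673 genes (1.64%). The members passing the filter were 9, without Tex101, and of these 2 had an unadjusted p under 0.05, Dazl and Mael. The fold changes of the 9 were above 0 for 6 and below 0 for 3, with a median of 0.28, against 0.01 over all tested genes. The pools did not overlap for 5 members, Dazl, Mael, Hormad1, Tdrd1 and Ddx4, where 39.2% of tested genes were separated in either direction. Replicate pools spread much more than mESC libraries, with a biological coefficient of variation of 0.442 against 0.0468, and the standard errors of the members' log2 fold changes, 0.19 to 0.72, were as large as several of the changes seen in mESCs.

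**Figure D4:**
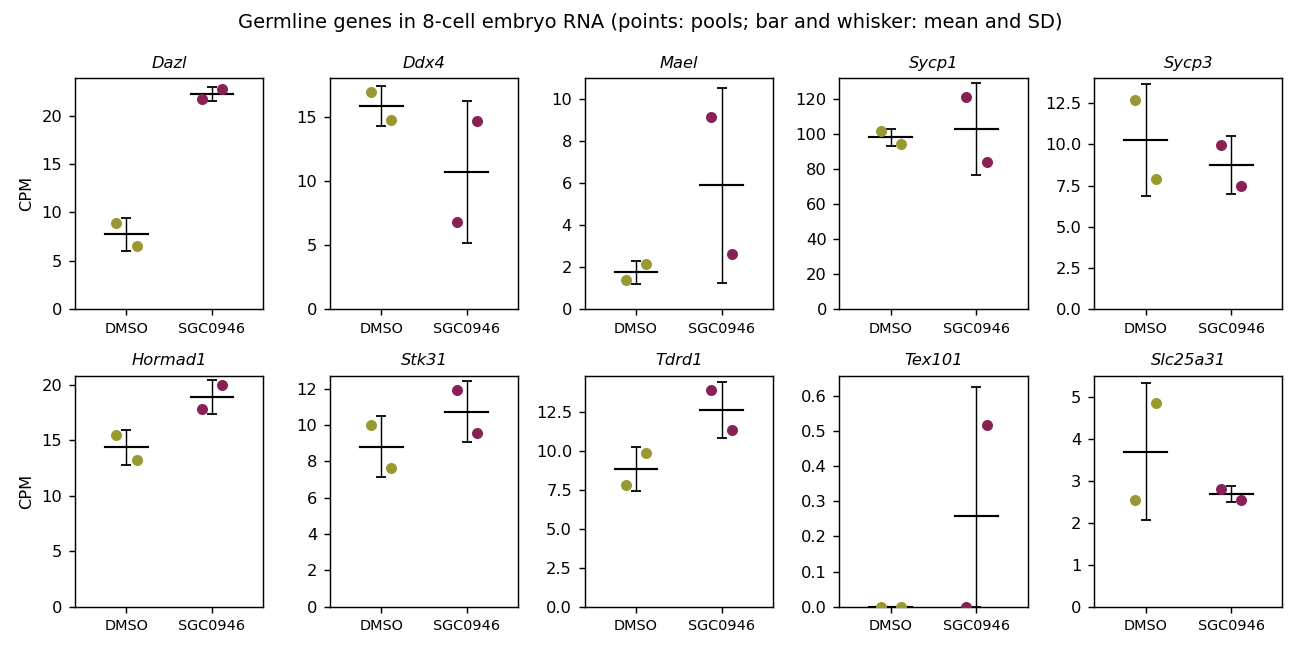
RNA level of each of the 10 germline genes in 8-cell embryos, in CPM, with 1 panel per gene and its own vertical axis from 0. Points are pools (2 DMSO, 2 SGC0946), and the bar and whisker are the mean and SD. Dazl shows both SGC0946 pools together and well above both DMSO pools, while for Mael only 1 SGC0946 pool is high.

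Dazl was at 8.95 and 6.52 CPM with DMSO and at 21.7 and 22.8 CPM with SGC0946, from 243 and 173 counts against 570 and 749. Both inhibitor pools were close together and far above both control pools. The log2 fold change was 1.52 ± 0.33 (SE, unadjusted p = 4.4e-04), and the adjusted p of 0.219 in edgeR did not pass. In DESeq2 the adjusted p was 0.0082, and without SGC0946 replicate 2 it was 0.0484 in edgeR; over all alternatives it ran from 0.0063 to 0.374, while the log2 fold change stayed between 1.31 and 1.77.

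Mael was at 1.36 and 2.15 CPM with DMSO and at 9.15 and 2.62 CPM with SGC0946. Only SGC0946 replicate 1 was clearly higher, and the log2 fold change of 1.74 ± 0.72 (SE, unadjusted p = 0.030, edgeR adjusted p = 0.557) was 0.58 without that pool. Ddx4 was at 16.9 and 14.74 CPM with DMSO and at 6.82 and 14.66 CPM with SGC0946. The second inhibitor pool was almost level with the lower control pool, and the log2 fold change of −0.56 ± 0.39 (SE, edgeR adjusted p = 0.790) was −0.11 without SGC0946 replicate 1. Hormad1 was at 15.5 and 13.2 CPM with DMSO and at 17.8 and 19.95 CPM with SGC0946, a log2 fold change of 0.40 ± 0.31 (SE, edgeR adjusted p = 0.808). Tdrd1 was at 7.85 and 9.84 CPM against 13.9 and 11.3 CPM (0.51 ± 0.37, edgeR adjusted p = 0.795).

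The pools overlapped for the other members. Sycp1 was at 102 and 94.5 CPM with DMSO and at 121 and 84.1 CPM with SGC0946 (log2 fold change 0.07 ± 0.19). Sycp3 was at 12.7 and 7.88 CPM against 9.99 and 7.48 CPM (−0.24 ± 0.41), Stk31 at 10.0 and 7.61 CPM against 11.9 and 9.55 CPM (0.28 ± 0.39), and Slc25a31 at 2.54 and 4.86 CPM against 2.82 and 2.56 CPM (−0.46 ± 0.69). Their adjusted p was at least 0.927 (edgeR). Tex101 had 0 counts in 3 pools and 17 counts (0.517 CPM) in SGC0946 replicate 2; a count of 0 allows up to 0.111, 0.113 and 0.114 CPM in those pools (3 counts per library, counting error only).

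**Figure D5:**
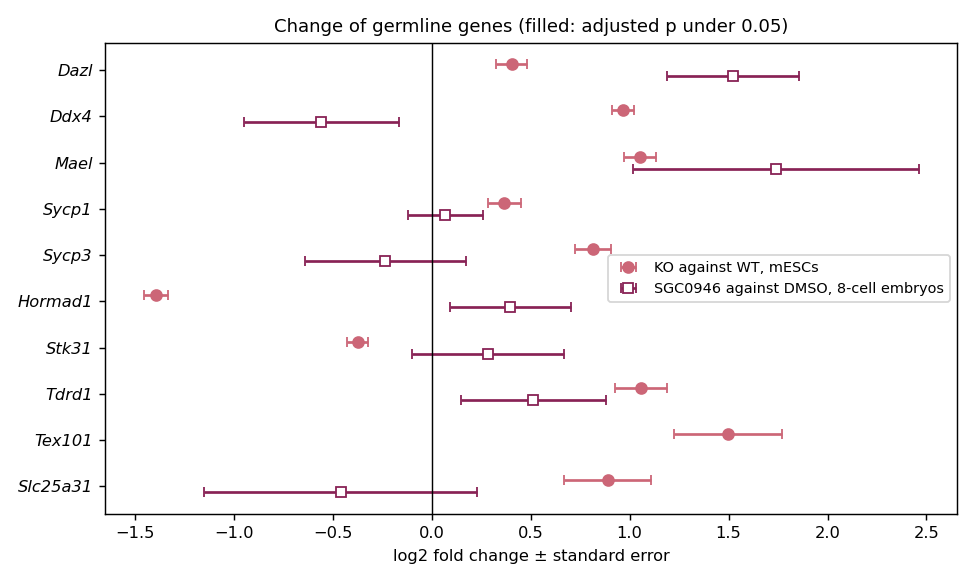
Log2 fold change (horizontal axis) with its standard error for each germline gene, KO against WT mESCs (circles) and SGC0946 against DMSO embryos (squares), filled where the adjusted p was under 0.05. All mESC points are filled and no embryo point is; Tex101 was not tested in embryos. Ddx4, Hormad1, Stk31, Sycp3 and Slc25a31 have opposite signs in the 2 comparisons, and the error bar of each embryo value is longer than that of the mESC value.

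Of the 57 tested genes of the wider lists in embryos, edgeR called none, and the median log2 fold change over the 57 was 0.01. Piwil2, Fkbp6, Brdt and Dppa3 (4 genes) were below 0.05 in edgeR without adjustment, where 8.15% of all tested genes were. DESeq2 called 1 of the 57, Piwil2, which was picked out after its values were seen and encodes a PIWI protein of the germline. It was at 112 and 110.3 CPM with DMSO and at 45.4 and 76.9 CPM with SGC0946, a log2 fold change of −0.86 ± 0.22 (SE, edgeR adjusted p = 0.332, DESeq2 adjusted p = 0.0226), while in mESCs it rose from 27.6 ± 0.80 to 50.7 ± 0.91 CPM in KO. Oocyte markers, which trace maternal RNA, summed to 117 to 125 CPM with DMSO and 109 to 129 CPM with SGC0946. Fibroblast markers summed to 1.66 to 2.86 CPM and 0.53 to 2.43 CPM, with Col3a1, Dcn and Lum at 0, and cumulus and granulosa markers to 1.03 to 1.24 CPM and 0.40 to 1.72 CPM, with Fshr, Inha and Ptx3 at 0. Markers of spermatids and testis somatic cells summed to 41.8 to 45.9 CPM and 39.1 to 39.7 CPM, with Tnp1 at 0. Most of that sum was Amhr2, at 40.6 and 44.2 CPM with DMSO and at 37.1 and 37.7 CPM with SGC0946. Pluripotency markers summed to 1628 to 1753 CPM and 1055 to 1251 CPM. Dot1l was at 267 ± 15.5 CPM with DMSO and 218 ± 5.16 CPM with SGC0946 (SD, n = 2 each). Its log2 fold change was −0.29 ± 0.13 (SE, edgeR adjusted p = 0.582). The inhibitor acts on the enzyme, so that value does not check the treatment.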

How the data were processed

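Values in the mESC table are estimated (expected) counts as deposited, by Ensembl gene, and 59.2 to 59.9% per library were whole numbers; the submitters' processing notes name kallisto for all 5 libraries, and STAR and HTSeq also for 4. Estimated counts divide reads between near-identical sequences, and Sycp1, Sycp3, Hormad1, Tdrd1 and Slc25a31 had values that were not whole. The deposited embryo table gives read counts per gene symbol, with STAR and HTSeq named in the submitters' processing notes. Versions, annotation and strand setting are not given in the sources used here. The authors' peak lists were called per library on mm10 with Bowtie2 and MACS2, per the submitters' processing notes. They hold a score, an enrichment (a ratio over background) and −log10 p and −log10 q values per peak as deposited by the authors, and are set to libraries by the peaks' own names.

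Estimated counts were rounded, and 69 rows without a symbol (at most 0.0163% of counts) were left out. Each table was fitted separately with edgeR 4.0.16 in R 4.3.3 (filterByExpr, TMM, quasi-likelihood test), with Benjamini-Hochberg adjustment over all tested genes and a threshold of 0.05. The fit was tested on simulated data. The SE of a log2 fold change is its absolute value divided by the square root of the F statistic of the quasi-likelihood test. CPM use TMM-scaled totals. No 2 replicates agreed within sampling noise (chi-square per degree of freedom of 2.36 to 5.27 in mESCs, 27.3 and 36.7 in embryos). Genes were called marked where a peak of each WT list overlapped the body by at least 1 bp; positions are those of RefSeq GRCm38.p6. Alternatives were edgeR with upper-quartile scaling or with the size factors of DESeq2, limma-voom (limma 3.58.1), DESeq2 1.42.0 itself, a minimum of 10 counts per library, no filter, autosomal genes only, a replicate block, leaving out each library, and other gene regions, lists and thresholds for peaks.

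The members and all gene lists were chosen with earlier results of these data known. Named besides the members and Dot1l were, per wider list (piRNA pathway, meiotic chromosome, meiotic entry and germ cell regulators, further germ cell genes, repressors of germline promoters) and direction, up to 3 called genes with the largest log2 fold change whose mean was 1 CPM or more. Marker lists held genes of mESCs, fibroblasts, oocytes, cumulus and granulosa cells, and spermatids with testis somatic cells. A further list held genes of chromosomes X and Y. The input libraries were not used here.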

Additional observations from a re-analysis of the deposited data

Results flagged for a closer look

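Ddx4, the germ cell helicase gene, went in opposite directions in the comparisons: the log2 fold change was 0.97 in KO against WT mESCs, with both KO libraries above all WT libraries, and −0.56 with SGC0946 against DMSO in embryos, where 1 inhibitor pool was at 6.82 CPM and the other, at 14.66 CPM, was almost level with the lower control pool at 14.74 CPM. Without SGC0946 replicate 1 the embryo value was −0.11. Hormad1, the axis protein gene, did the reverse, with −1.39 in mESCs and 0.40 in embryos, where both inhibitor pools were above both control pools. The contrasts differ in kind, a knockout in cultured cells and an inhibitor in embryos, and the difference between them was not tested. Neither embryo value passed the threshold.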

How the results depend on the processing

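All 10 members stayed called in mESCs, 8 higher, under every alternative run there, including each library left out, while between 39 and 47 of the wider germline genes were called, against 45. In embryos the count of members called was 0, and 1 (Dazl) in DESeq2, with no filter and in the fit with the replicate block; without 1 library it was 0 to 1. For the wider genes it was 0, and 1 (Piwil2) in DESeq2, in limma-voom, with no filter and with the replicate block; without 1 library it was 0 to 3, the 3 being Piwil2, Dppa3 and Tdrd12 without SGC0946 replicate 2. Same-numbered libraries did not deviate together (correlations of 0.0046 and −0.03 in mESCs, 0.05 in embryos), so the numbers are not taken to pair them; with the block the adjusted p was 0.0063 for Dazl and 0.072 for Ring1, 10 members and 46 wider genes were called in mESCs, and 171 of all embryo genes were called against 0. Total embryo calls were 126 in DESeq2, 55 in limma-voom, 111 with no filter, 23 with at least 10 counts and 4 to 365 without 1 library, each of which leaves 1 pool in an arm, assumed to vary like the others. Without 1 pool, the embryo log2 fold change ran from −0.54 to 0.15 for Sycp3 (positive without DMSO replicate 1), from −0.86 to 0.081 for Slc25a31 (positive without DMSO replicate 2) and from −0.22 to 0.31 for Sycp1 (negative without SGC0946 replicate 1). The cause was not tested. No member had H3K79me2 under any alternative, the extended body requiring a peak in both WT lists. For H3K79me3, 1 member (Sycp1) had a peak in either WT list or in replicate 1 alone. Tex101 and Slc25a31 rest on under 70 counts per mESC library.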
